A study of Mus musculus with 6 samples.

Results

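Glycolysis, the entry of pyruvate into mitochondria and the transport of glucose and lactate were followed through 34 genes in nuclei of the mouse brainstem. The 34 symbols form a list by function whose rule uses no measured value, although it was drawn up with earlier results of these data known. They matched 35 of the 32285 rows of the gene tables, because Aldoa has 2 gene identifiers. The members are 16 glycolytic enzymes, 2 lactate dehydrogenases, 5 glucose and monocarboxylate transporters, 3 enzymes that make and remove fructose-2,6-bisphosphate, and 8 proteins of pyruvate entry.

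Glycolysis splits glucose into pyruvate, and several of its steps are run by isozymes that differ between cell types. Pyruvate either enters mitochondria through the Mpc1 and Mpc2 carrier and the pyruvate dehydrogenase complex, or is turned into lactate, which crosses membranes through the Slc16a transporters. In brain, astrocytes are known for glycolytic metabolism and glycogen storage, and oligodendrocytes for passing lactate to axons. In low oxygen, the transcription factor HIF-1 is known to raise many glycolytic genes through sites with the core letters ACGTG.

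Single-nucleus RNA was sequenced from the pons and medulla of wild-type male C57BL6/J mice. In the chronic intermittent hypoxia group (CIH, 3 libraries), chamber oxygen was lowered to between 4.5 and 5% by 60 seconds of nitrogen and restored to 21% with air over up to 5 minutes, in 80 cycles a day over 8 hours. The exposure lasted 21 days, from postnatal day 22 to 43, after weaning at day 21. The normoxia group (3 libraries) stayed in room air over the same days. Every mouse was wild type, so the groups differ by the exposure alone as far as the labels say, and nuclei were sorted by a DNA dye before loading. The number of mice behind a library is not given in the labels. The p-values therefore reflect variation among libraries, part of which may be technical.

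The deposited libraries held 26733243 to 46754345 unique molecular identifiers (UMIs, counted RNA molecules). Of 43836 barcodes, 40139 passed a minimum of 500 genes and a mitochondrial share of no more than 5%. Among these, 1163 barcodes were shared by the first CIH library and the second normoxia library, which is 26.7% of the nuclei of the first and 17.6% of the nuclei of the second, while the other pairs of libraries shared between 2 and 31. The shared barcodes were removed from the second normoxia library, where their median was 1232 UMIs against 9858 in the first CIH library, and the counts of members called for CIH were 0 in every sum both without and with them. The third CIH library stood apart, with a median mitochondrial share of 0.366% against 0.0709 to 0.0955% in the other libraries, and with ribosomal protein genes at 0.550% of UMIs against 0.287 to 0.330%.

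Nuclei were put into classes by marker genes that are not members. The gates took 12249 oligodendrocytes, 293 oligodendrocyte precursors, 933 astrocytes, 1589 microglia, 847 endothelial cells and 17803 neurons. Among the neurons were 3561 granule neurons, 2825 excitatory neurons (defined by Slc17a6 alone beside the general neuronal markers) and 3763 inhibitory neurons. Between 1 and 6 of the 10 leading genes of a class were its own markers, and the excitatory neurons, with 1, also had 1 marker of the fibroblast list among theirs. Mural cells and fibroblasts were too few for a test, with as few as 9 and 6 nuclei in a library. Class sizes were uneven: 554 of the 933 astrocytes came from the third CIH library, against 50 to 104 from each other library. So did 128 of the 187 mural cells. Of these 554 astrocytes, 154 only just met the gate, against 15 of 104 in the third normoxia library. Nuclei without a class made up 18.4% of that CIH library, against 10.14 to 10.98% of the others. The part of this mix in the values of all nuclei was not tested. Levels are given as CPM, the UMIs of a gene per 1000000 UMIs of that class in that library. Differences are log2 values fitted by edgeR after scaling for library composition.

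Promoters were read because the exposure is hypoxic. RefSeq (GRCm38.p6) lists 49 promoter windows for 32 of the 34 members, each from 250 bases before to 50 bases after a start site. The core ACGTG, searched on both strands (as ACGTG and CACGT), was found in 22 of the 49 (44.9%) and in at least 1 window of 18 of the 32 members. Over all listed promoters it was found in 6447 of 32851 (19.6%), and over all listed genes in 5886 of 27025 (21.8%). CACGTG holds the core on both strands and counts as 2 overlapping matches. A match is a description of letters and not a bound site. The following 100-base stretches read 5′ to 3′ on the gene's strand, lie outside annotated exons and show the matches in capitals. For each gene the upstream stretch with the most matches was taken, and no member without the core is shown. The stretches therefore do not describe a typical promoter of the members. Shown are the hexokinase that marked microglia and the lactate dehydrogenase with the smallest p for CIH in all nuclei. The others are the fructose-2,6-bisphosphate enzyme that was lower in CIH neurons in some settings, a transporter called higher in endothelial cells and a phosphoglycerate kinase. The stretches lie at chr6:82774455-82774554 on the minus strand (Hk2), chr7:46845704-46845803 on the plus strand (Ldha), chr2:11502102-11502201 on the minus strand (Pfkfb3), chr3:104638464-104638563 on the plus strand (Slc16a1) and chrX:106186950-106187049 on the plus strand (Pgk1).
Hk2: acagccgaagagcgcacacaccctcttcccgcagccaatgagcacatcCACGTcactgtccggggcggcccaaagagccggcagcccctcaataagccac
Ldha: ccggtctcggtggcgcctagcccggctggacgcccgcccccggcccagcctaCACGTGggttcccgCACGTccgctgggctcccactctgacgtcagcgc
Pfkfb3: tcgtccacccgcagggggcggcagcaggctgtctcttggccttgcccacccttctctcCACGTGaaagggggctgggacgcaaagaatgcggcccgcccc
Slc16a1: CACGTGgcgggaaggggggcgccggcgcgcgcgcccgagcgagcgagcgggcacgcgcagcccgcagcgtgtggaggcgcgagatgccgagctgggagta
Pgk1: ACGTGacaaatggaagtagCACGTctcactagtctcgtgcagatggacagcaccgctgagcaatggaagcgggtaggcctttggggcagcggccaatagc

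The members differed between cell classes, as most genes did. All 34 members tested were called in at least 1 of 8 classes against the mean of the other classes (edgeR, adjusted p under 0.05), as were 96.1% of all 15064 genes, so this count sets the members apart in no way. The second Aldoa identifier had too few UMIs and was not tested. Astrocytes had the most members called higher, 22, with 3 called lower. Over all genes, 22.5% were called higher in astrocytes and 19.7% lower, and the members' median difference was 0.55 against -0.04 for all genes. In oligodendrocytes 8 members were higher and 16 lower, against 34% and 29.4% of all genes. Oligodendrocyte precursors, the smallest class, had 2 higher and 8 lower, against 10.8% and 12.8%. Microglia had 8 higher and 12 lower, against 29.8% and 25.2%, and endothelial cells 8 and 9, against 23.3% and 20.9%. Of the neurons, granule neurons had 10 higher and 11 lower, against 30% and 23.4%. Excitatory neurons had 13 and 15, against 35% and 27.5%, and inhibitory neurons 14 and 11, against 35.5% and 28.1%. The members' median was -0.55 in precursors against -0.25 for all genes, and -0.20 in oligodendrocytes against 0.02.

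**Figure D1:**
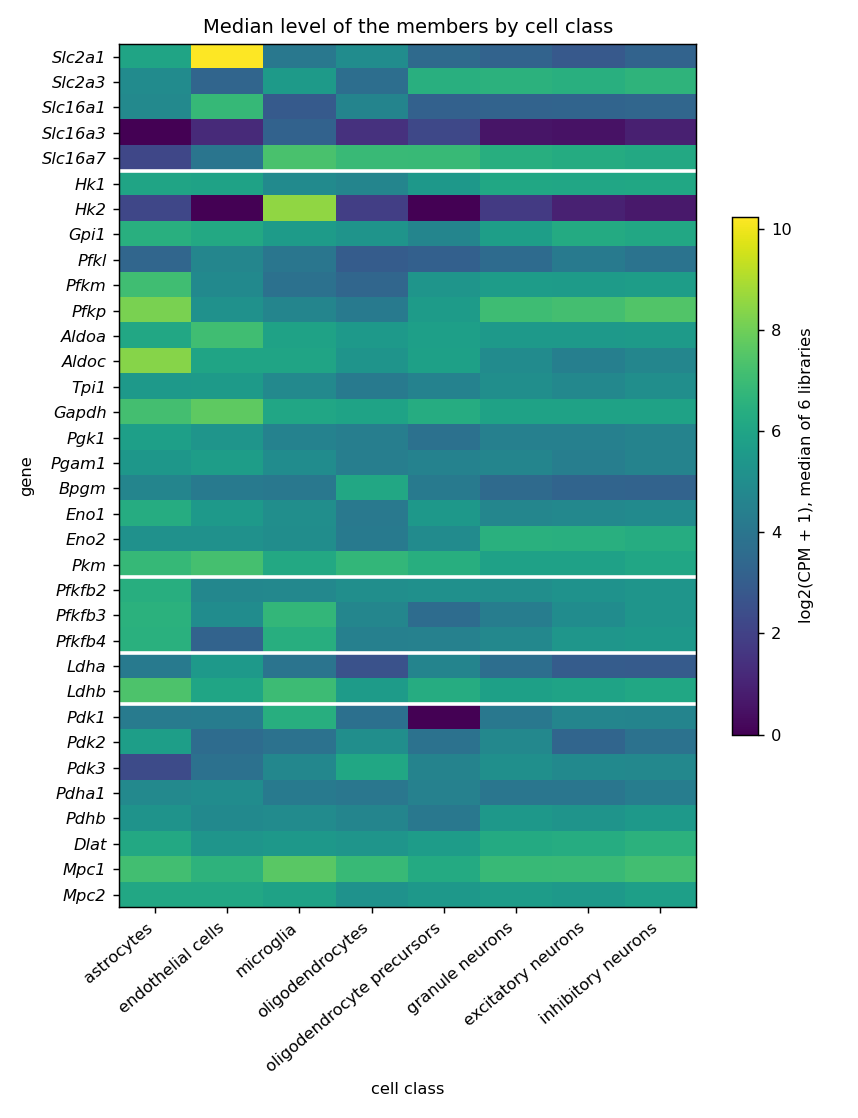
Median level of each member over the 6 libraries (colour, log2 of CPM plus 1; rows are genes by role, columns are cell classes, and white lines separate the roles). Colours are to be compared along a row; Slc2a1 stands out in endothelial cells (median 1208 CPM), Hk2 in microglia (376) and Aldoc in astrocytes (334).

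Scaling moved the share of higher calls by over 10 points in 3 contrasts. With RLE size factors in place of TMM, the share of calls that were higher went from 53.7 to 42.6% in oligodendrocytes, where the median of all genes moved from 0.02 to -0.13. It went from 45.9 to 58.5% in oligodendrocyte precursors (median -0.25 to -0.11), and from 47.5 to 59.5% in astrocytes minus oligodendrocytes (median -0.08 to 0.10). The members called higher and lower became 7 and 18 in oligodendrocytes, 2 and 7 in precursors and 26 and 3 in astrocytes minus oligodendrocytes. In the other contrasts the share moved by up to 5.29 points, which crossed 50% in microglia (54.1 to 49.2%) and in astrocytes minus excitatory and inhibitory neurons (48.7 to 51.6%). RNA from other classes was also measurable: the oligodendrocyte RNA Mbp had a median level in other classes of 2.61 to 11.04% of that in oligodendrocytes. Levels below such shares of the highest class may hold RNA from other classes, so differences among classes with such levels are uncertain.

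Glucose transporters divided the classes. Slc2a1 encodes GLUT1, the transporter of the blood-brain barrier and of glia, and in endothelial cells it had 944 to 1376 CPM (median 1208 over 6 libraries). Its level was 59.1 to 74.0 in astrocytes (median 62.3), 28.8 to 36.4 in oligodendrocytes (median 30.4) and 5.10 to 8.03 in excitatory neurons (median 6.32). Every endothelial library lay above every library of these classes. Levels in these classes were so far below the endothelial one that RNA from other nuclei may contribute. Differences and shares among them are therefore uncertain. The endothelial difference from the mean of the other classes was 5.94 ± 0.09 (SE, adjusted p = 1.1e-52, edgeR), and the differences in granule, excitatory and inhibitory neurons were -1.79, -2.25 and -1.85. Slc2a3 encodes GLUT3, the high-affinity transporter of neurons. It had 88.4 to 106 CPM in inhibitory neurons (median 100), 83.1 to 102 in excitatory neurons and 84.3 to 96.8 in granule neurons, which overlapped each other. Oligodendrocytes had 10.0 to 14.2 and endothelial cells 0 to 21.0. Slc2a3 was called higher in the 3 neuronal classes, by 1.30 to 1.41, and lower in endothelial cells, by a difference of -2.32 ± 0.30. In oligodendrocyte precursors, which had 74 Slc2a3 UMIs in all, it was higher by 1.00 ± 0.21, and without the third CIH library this call was lost (0.63, adjusted p = 0.12, edgeR).

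As a share of the 2 transporters' UMIs, Slc2a1 made up 99.2% of the total in endothelial cells (median), 68.9% in astrocytes and 71.7% in oligodendrocytes, against 24.9% in microglia and 6.61% in excitatory neurons. Shares also depend on how well each gene is captured, so a share is compared here between classes and not between genes. The Slc2a3 share was lower than in excitatory neurons by a difference of -92.3 points in endothelial cells, -66.0 in astrocytes and -65.7 in oligodendrocytes, in 6 of 6 libraries each.

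Monocarboxylate transporters carry lactate and pyruvate. Slc16a1 (MCT1) had 42.4 to 217 CPM in endothelial cells (median 114), 21.0 to 44.0 in astrocytes (median 27.6) and 17.6 to 25.02 in oligodendrocytes (median 23.9). The ranges of astrocytes and oligodendrocytes overlapped. That of excitatory neurons, 8.72 to 12.4, was lower, but so far below the endothelial median that RNA from other classes may contribute to it. The endothelial difference was 2.65 ± 0.23 (adjusted p = 4.8e-15, edgeR). Slc16a7 (MCT2, the high-affinity lactate transporter known from neurons) was near its floor in astrocytes, with 13 UMIs in 6 libraries and 0 to 7.99 CPM, a difference of -4.00 ± 0.26. It had 127 to 198 in microglia, 113 to 125 in oligodendrocytes and 66.1 to 93.1 in excitatory neurons, and these ranges did not overlap. In precursors, with 92.1 to 163, the difference was 1.22 ± 0.18. The Slc16a7 share of the 3 transporters was 11.7% in astrocytes (85 transporter UMIs in all), 83.2% in oligodendrocytes, 91.2% in microglia and 89.2% in excitatory neurons (medians). Slc16a3 (MCT4, a lactate exporter) was rare. It had 4.74 to 16.9 CPM in microglia from 29 UMIs, a difference of 2.93 ± 0.42, and 0.40 to 0.85 in granule neurons from 11 UMIs, a difference of -1.51 ± 0.49 that lost its call without the third CIH library and in deeper nuclei.

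Hexokinases commit glucose to the cell. Hk2 was high in microglia alone among the classes, with 219 to 429 CPM (median 376) against no more than 21.1 in a library of any other tested class. Its difference was 7.16 ± 0.16 (adjusted p = 4.1e-43, edgeR), a size that depends on the prior count because endothelial cells and precursors held 3 and 2 Hk2 UMIs in all. Hk1, the isozyme known from neurons, was lower in microglia (23.6 to 36.2 CPM) than in excitatory neurons (57.9 to 69.5). Hk2 made up 85.8 to 94.0% of hexokinase UMIs in microglia and 0 to 3.39% in excitatory neurons. Gated microglia held between 50 and 57.8% of all Hk2 UMIs of a library, neurons 4.98 to 10.4% and oligodendrocytes 3.25 to 11.2%, and astrocytes held 14 of the 1711 UMIs over all libraries, most of the rest lying in nuclei without a class. The calls of lower Hk2 in excitatory and inhibitory neurons (-2.03 and -2.93) were lost without the third CIH library.

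Phosphofructokinase, the main control step of glycolysis, set astrocytes and oligodendrocytes apart. Pfkp had 248 to 356 CPM in astrocytes (median 288), 147 to 185 in inhibitory neurons (median 173) and 15.5 to 26.3 in oligodendrocytes (median 17.7). Astrocytes lay above and oligodendrocytes below every library of the neurons. Its difference was 2.30 ± 0.09 in astrocytes, 1.42 ± 0.07 in inhibitory neurons, -1.97 ± 0.10 in oligodendrocytes and -1.81 ± 0.16 in microglia. Pfkm followed the same order, with 104 to 144 in astrocytes, 39.7 to 50.8 in excitatory neurons and 6.73 to 14.6 in oligodendrocytes. It differed by -1.89 ± 0.12 in oligodendrocytes and -1.58 ± 0.22 in microglia. Astrocytes minus oligodendrocytes gave 3.74 ± 0.11 for Pfkp and 3.54 ± 0.15 for Pfkm. Pfkl, the liver-type subunit, was low throughout and made up 19.2% of the family in oligodendrocytes and 2.02% in astrocytes (medians).

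Aldolase C had the largest difference among the members higher in astrocytes. Aldoc, long used as an astrocyte marker, had 264 to 587 CPM there (median 334), 29.97 to 109 in oligodendrocytes and 14.9 to 58.3 in excitatory neurons. No astrocyte library overlapped a library of those classes. The difference was 2.90 ± 0.14 from the mean of the other classes and 3.56 ± 0.15 from excitatory and inhibitory neurons (adjusted p = 2.2e-26 and 2.1e-29, edgeR). Aldoc made up 83.3% of aldolase UMIs in astrocytes and 32.6% in excitatory neurons (medians), with a mean difference of 48.9 points and the same direction in 6 of 6 libraries.

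Lower glycolysis showed smaller differences, with Bpgm and the enolases as exceptions. Bpgm encodes bisphosphoglycerate mutase, which makes 2,3-bisphosphoglycerate and is known from red blood cells. It had 62.5 to 77.6 CPM in oligodendrocytes (median 70.2) against 5.10 to 11.4 in excitatory neurons and 21.8 to 43.5 in astrocytes, a difference of 2.38 ± 0.08 (adjusted p = 1.6e-33, edgeR). Eno2, the neuronal enolase, had 79.4 to 108 in excitatory neurons and 77.5 to 102 in granule neurons, which overlapped, against 15.3 to 40.3 in oligodendrocytes. Its differences were 1.27 ± 0.09 and 1.22 ± 0.09 in those neurons. Eno2 made up 76.1% of enolase UMIs in excitatory neurons, 55.3% in oligodendrocytes and 31.6% in astrocytes. Gapdh, Pgk1, Tpi1, Eno1 and Pkm were called higher in astrocytes, by 0.42 to 1.46, and Gapdh, Aldoa and Pkm were also higher in endothelial cells, by 0.51 to 0.86. Pkm was higher in oligodendrocytes by 0.78. Gpi1, glucose-6-phosphate isomerase, was higher in astrocytes, excitatory and inhibitory neurons, by 0.49 to 0.63, and lower in precursors (-1.44), microglia (-0.39) and oligodendrocytes (-0.20). The size of the oligodendrocyte value is uncertain, because scaling moved the median of all genes there from 0.02 to -0.13. Pgam1, the phosphoglycerate mutase, was called in excitatory neurons alone among the 8 classes (-0.27). Gapdh, Pgk1, Tpi1, Ldha and Pgam1 are known for near-identical processed copies in the mouse genome, so their counts are uncertain.

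Summed, the 16 glycolytic enzymes had 1279 to 1927 CPM in astrocytes (median 1547), 931 to 1225 in endothelial cells (median 1093) and 834 to 1364 in microglia (median 893). Excitatory neurons had 676 to 1001 (median 709) and oligodendrocytes 468 to 1053 (median 511). Every astrocyte library lay above every library of these neurons and of the oligodendrocytes. The highest value in oligodendrocytes, 1053, and in excitatory neurons, 1001, was the third CIH library's.

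Fructose-2,6-bisphosphate, the activator of phosphofructokinase, is made by the Pfkfb enzymes. Pfkfb3, whose product strongly favours synthesis, had 73.9 to 126 CPM in microglia (median 110) and 60.9 to 119 in astrocytes (median 92.6), which overlapped. The 3 neuronal classes and oligodendrocytes lay lower, between 13.6 and 43.9 in a library. Pfkfb3 was higher by 1.77 in astrocytes and 1.64 in microglia, and lower by a difference of -1.67 ± 0.39 in precursors, from 12 UMIs. Pfkfb4 was higher by 1.44 in astrocytes and 1.38 in microglia, and differed by -2.56 ± 0.33 in endothelial cells, from 10 UMIs. Pfkfb2, the heart-type enzyme, was higher in astrocytes by 1.31 and lower in microglia (-0.71).

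Lactate dehydrogenase interconverts pyruvate and lactate. Ldhb, the heart-type subunit, had 122 to 204 CPM in astrocytes (median 165) and 43.2 to 113 in oligodendrocytes (median 48.4), and was higher in astrocytes by 1.08. Ldha, the muscle-type subunit, had 30.6 to 77.2 in endothelial cells (median 45.5) and 3.19 to 8.37 in oligodendrocytes (median 5.03), ranges that did not overlap, and differed by 1.87 in the former and -1.18 in the latter. Ldha made up 51.5% of the family's UMIs in endothelial cells (median), with a range of 21.7 to 100% from as few as 3 UMIs in a library. Its share was 10.6% in astrocytes, 7.81% in oligodendrocytes and 7.97% in excitatory neurons.

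Pyruvate dehydrogenase kinases switch off the entry of pyruvate carbon into the citric acid cycle, and the shares of the 3 kinases differed between glial classes. Pdk3 had 64.4 to 69.9 CPM in oligodendrocytes (median 66.9) against 27.4 to 36.4 in excitatory neurons and 0 to 5.29 in astrocytes, where 11 UMIs were counted. The 3 ranges did not overlap, and the differences were 2.03 ± 0.09 in oligodendrocytes and -2.78 ± 0.34 in astrocytes. Pdk1 had 79.4 to 123 in microglia (median 85.4) against no more than 42.9 in a library of any other tested class, and was higher there by 2.44. In precursors Pdk1 differed by -2.05 ± 0.61, from 5 UMIs. Pdk2 was higher in astrocytes by 1.73 and in oligodendrocytes by 1.13. As shares, Pdk3 was 59.5% of kinase UMIs in oligodendrocytes, Pdk1 71.8% in microglia and Pdk2 68.3% in astrocytes (medians), against 46.5, 38.0 and 15.0% in excitatory neurons.

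The carrier and the dehydrogenase complex varied less. Mpc1 was higher in microglia by 0.50, in oligodendrocytes by 0.19 and in inhibitory neurons by 0.17, and was lower in precursors (-0.86). The oligodendrocyte value is uncertain, because RLE in place of TMM moved the median of all genes there from 0.02 to -0.13. Mpc2 was higher in astrocytes by 0.36 and in endothelial cells by 0.40. Pdhb, a subunit of the complex, was higher in the 3 neuronal classes by 0.34 to 0.57, and Dlat, its acetyltransferase, by 0.46 to 0.82, while both were lower in microglia and oligodendrocytes. Pdha1, the catalytic subunit, was higher in endothelial cells by 0.62. The 8 pyruvate-entry members summed to 365 to 474 CPM in astrocytes, 327 to 404 in oligodendrocytes and 343 to 385 in excitatory neurons, ranges that overlapped.

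**Figure D2:**
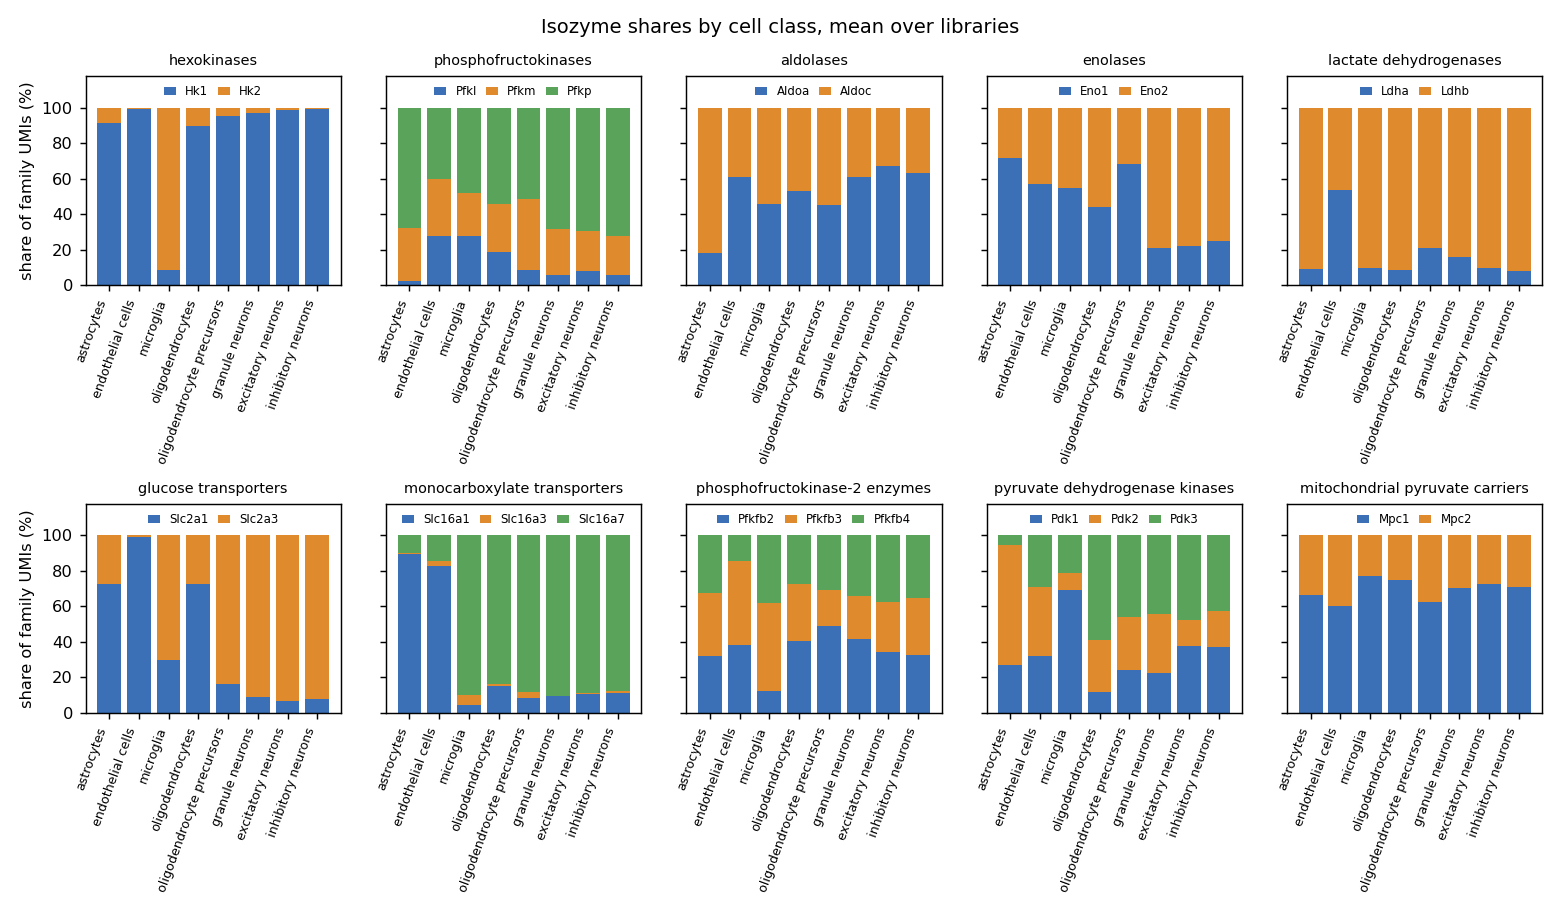
Share of each isozyme in the UMIs of its family (y axis, %, mean over the 6 libraries) by cell class (x axis), 1 panel per family, with colours for the genes named above the bars. The Hk2 share is highest in microglia (median 92.3%) and the Slc16a1 share in astrocytes (88.3%, from as few as 5 family UMIs in a library). The Pdk2, Pdk1 and Pdk3 shares are highest in astrocytes, microglia and oligodendrocytes.

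Classes were also compared in pairs. Astrocytes minus oligodendrocytes called 23 members higher and 4 lower, against 23.1% and 25.5% of all genes, with Slc16a7 at -4.82 ± 0.23 and Pdk3 at -4.21 ± 0.28. Astrocytes minus excitatory and inhibitory neurons called 22 higher and 4 lower, against 27.7% and 29.2%, with Slc2a1 at 2.96 ± 0.18. The Slc2a1 levels of both sides lay far below the endothelial one, so this difference is uncertain. Granule minus excitatory neurons called 3 higher and 6 lower, against 16.2% and 21.5%, with Pdk2 at 1.41 ± 0.15, Ldha at 0.69 ± 0.20, Pfkfb3 at -0.66 ± 0.12 and Pfkfb4 at -0.59 ± 0.10. Inhibitory minus excitatory neurons called 3 higher (Pdk2 at 0.49 ± 0.15, Pfkfb3 at 0.36 ± 0.10 and Dlat at 0.25) and 0 lower, against 2.12% and 3.97%, and between 0 and 2 calls were left when a library was left out, with 0 without the first or the second normoxia library.

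Of 90 isozyme shares compared with excitatory neurons (18 shares in 5 classes), 45 differed in the same direction in 6 of 6 libraries. That gives the smallest p possible, 0.03125, in an exact sign-flip permutation test (two-sided), and after Benjamini-Hochberg adjustment the smallest was 0.0625, so 0 passed 0.05. The 45 were 13 in oligodendrocytes, 10 each in astrocytes and endothelial cells, 9 in granule neurons and 3 in inhibitory neurons.

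Related genes were read from lists chosen with the members. Of 11 glycogen genes, 7 were higher and 1 lower in astrocytes. The former included Pygb, the brain glycogen phosphorylase (2.98 ± 0.11), and Pgm1, a phosphoglucomutase (2.93 ± 0.11). In oligodendrocytes 2 were higher and 5 lower. Of 12 genes of pyruvate and lactate handling, 4 were higher in astrocytes and 1 lower, with Pcx, the carboxylase that feeds the citric acid cycle, at 2.06 ± 0.12, and 3 were higher and 3 lower in endothelial cells, with Bsg, the chaperone of Slc16a1, at 5.29 ± 0.09. Of 8 pentose phosphate genes, 4 were higher in oligodendrocytes and 1 lower, with Taldo1, transaldolase, at 2.25 ± 0.07, and in microglia 4 were higher and 0 lower. Of 10 genes of cytosolic NADH shuttles, 4 were higher and 5 lower in oligodendrocytes, with Slc25a13, an aspartate and glutamate carrier, at 3.37 ± 0.07, and 4 were higher and 1 lower in astrocytes, with Gpd2, the mitochondrial glycerol-3-phosphate dehydrogenase, at 2.66 ± 0.09. Of 17 genes of hexose handling, 8 were tested, and in microglia 2 were higher and 2 lower, with Hk3, a further hexokinase, at 6.41 ± 0.28. Of all genes, 34% were called higher and 29.4% lower in oligodendrocytes, and 22.5% and 19.7% in astrocytes. In endothelial cells these shares were 23.3% and 20.9%, and in microglia 29.8% and 25.2%. The 3 of 12 in endothelial cells and the 2 of 8 in microglia lay near them. No list was tested against the shares of all genes. With 8 to 12 genes tested in a list, the counts of 4 or 5 above are not clearly higher than these shares. The largest count was the 7 of 11 glycogen genes higher in astrocytes.

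CIH against normoxia called none of the members. The edgeR test called 0 members in all nuclei, where 1 of 19644 genes was called (0.00509%), and 0 in inhibitory neurons, where 1 of 14631 was called (0.00683%). It called 0 members and 0 genes (0%) in all neurons, oligodendrocytes, precursors, astrocytes, microglia, endothelial cells, granule neurons and excitatory neurons. DESeq2 on the same sums also called 0 members in every sum. With the replicate number as a block, edgeR called 0 members in every sum, and 33 genes in oligodendrocytes and 226 in neurons. At an unadjusted p under 0.05 there were 4 of 35 rows in all nuclei, against 11.1% of all genes, and 9 of 35 in neurons, against 13.7%. There were 4 of 34 in oligodendrocytes (5.49% of all genes), 8 of 32 in excitatory neurons (6.72%), 6 of 32 in inhibitory neurons (7.44%) and 1 of 32 in granule neurons (5.67%). There were 1 of 21 in astrocytes (6.28%), 2 of 25 in microglia (4.94%) and 0 of 9 in endothelial cells (7.78%). In precursors 1 member could be tested, and it did not pass (5.42%). On simulated data the same test recovered 57% of 2-fold changes in oligodendrocytes and 26% in endothelial cells, so smaller differences may be missed.

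Most members were higher in CIH, and the third CIH library set much of the size. In oligodendrocytes 26 of 34 rows were higher and their median difference was 0.27, against 0.01 for all genes, while without the third CIH library 19 of 34 were higher with a median of 0.03. The median went from 0.10 to 0.03 in all nuclei, from 0.20 to 0.05 in microglia and from 0.14 to 0.02 in granule neurons. In astrocytes it went from 0.07 to -0.12. In excitatory neurons it went from 0.08 to 0.05 and in inhibitory neurons from 0.06 to 0.03. Without that library 1 member was called in all nuclei, where 2.76% of genes were called, and 3 in neurons, where 5.48% of genes were called. The 3 were Aldoc, Pfkfb3 and Slc16a7. In granule, excitatory and inhibitory neurons alone, 0 members were called without that library, and 2, 24 and 14 genes were. All neurons pool these classes with other neurons, and the part of their mix in the 3 calls was not tested.

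**Figure D3:**
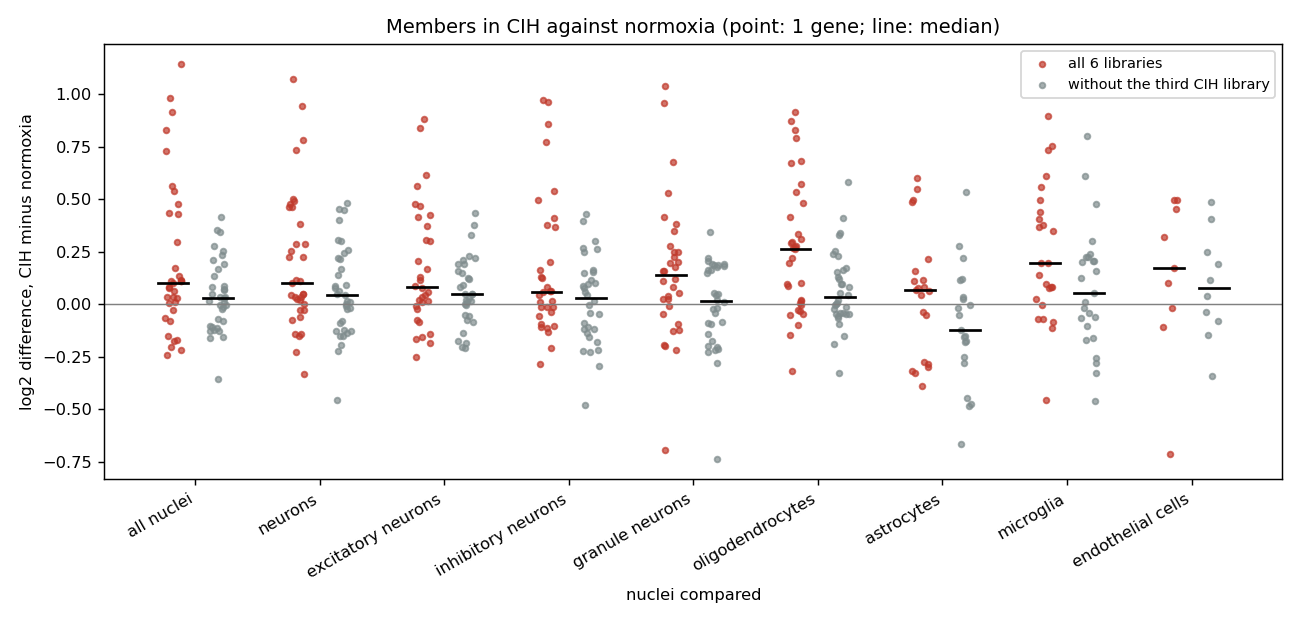
Fitted log2 difference, CIH minus normoxia (y axis), of each member (points) in 9 sums of nuclei (x axis), with all 6 libraries (red) and without the third CIH library (grey); black lines are medians. The oligodendrocyte median falls from 0.27 to 0.03 and the astrocyte median from 0.07 to -0.12 without that library.

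Ldha and Slc2a1 had the smallest p of the members in all nuclei, without passing the test. Ldha had 8.44, 9.95 and 11.9 CPM in CIH and 7.20, 7.35 and 5.95 in normoxia. The groups did not overlap, and the difference was 0.56 ± 0.16 (adjusted p = 0.37, edgeR, and 0.12 to 0.73 over the alternatives). In neurons Ldha had 8.92, 10.5 and 10.2 against 7.36, 8.17 and 5.82, again without overlap (0.48 ± 0.15, adjusted p = 0.24, edgeR). In oligodendrocytes Ldha had 5.54, 6.31 and 8.37 against 4.09, 3.19 and 4.53, from 20 to 82 UMIs a library, without overlap (0.79 ± 0.25, adjusted p = 0.82, edgeR). In all nuclei it was 0.42 when the third CIH library was left out.

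Slc2a1 in all nuclei had 20.6, 21.3 and 50.1 CPM in CIH and 18.4, 15.2 and 15.3 in normoxia. The CIH libraries lay above the normoxia libraries, the third far above (0.92 ± 0.35, adjusted p = 0.42, edgeR), and without it the difference was 0.35. Endothelial nuclei supplied 35.3, 31.4 and 47.0% of these UMIs in CIH and 19.6, 17.5 and 21.7% in normoxia. They numbered 84, 73 and 493 in CIH and 45, 42 and 110 in normoxia. Within endothelial cells the difference was 0.17 ± 0.22 (adjusted p = 0.91, edgeR), within oligodendrocytes 0.19, within astrocytes 0.07 and within neurons 0.46.

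The aldolases, Gapdh and Pkm were among the members with the smallest p in the neuronal classes. In excitatory neurons Gapdh had 62.3, 66.2 and 130 CPM in CIH and 44.6, 44.2 and 55.5 in normoxia. The groups did not overlap and the third CIH library was the highest by far (0.84 ± 0.24, adjusted p = 0.67, edgeR; 0.38 without that library). In granule neurons Gapdh had 63.8, 55.3 and 194 against 45.1, 46.2 and 64.4, which overlapped (0.96 ± 0.45, adjusted p = 0.83, edgeR; 0.18 without the third CIH library). In inhibitory neurons Aldoa had 56.7, 48.9 and 104 against 36.4, 34.9 and 45.0, without overlap (0.86 ± 0.25, adjusted p = 0.55, edgeR). Its difference was 0.40 without the third CIH library. Pkm, the pyruvate kinase, had 68.6, 74.4 and 104 there against 61.8, 55.7 and 53.5, also without overlap (0.54 ± 0.15, adjusted p = 0.55, edgeR), and the difference was 0.30 without that library. With no filter on low counts, Gapdh in both neuronal classes, Aldoa and Pkm passed the threshold, where 0.560% of all genes in granule, 0.820% in excitatory and 1.15% in inhibitory neurons did. In neurons Aldoc had 33.0, 30.5 and 80.1 against 22, 21.8 and 24.7. Its difference of 1.07 ± 0.35 (adjusted p = 0.26, edgeR) became 0.45 ± 0.10 without the third CIH library and then passed the threshold (adjusted p = 0.036, edgeR), as did Aldoc in all nuclei (0.35 ± 0.07, adjusted p = 0.043, edgeR). No neuronal class alone gave a call for Aldoc without that library.

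In astrocytes and endothelial cells the smallest p fell on Gapdh and an aldolase, and in microglia on Aldoc and Pdk1. Aldoc in astrocytes had 296, 587 and 424 CPM in CIH against 332, 336 and 264 in normoxia, which overlapped. Gapdh in astrocytes had 79.3, 178 and 271 against 104, 143 and 144, with the lowest and the highest library both in CIH. Aldoc in microglia had 91.7, 50.1 and 192 against 52.2, 53.9 and 69.2, and in endothelial cells Gapdh had 201, 309 and 266 against 217, 157 and 172, both with overlap. Aldoa in endothelial cells had 128, 147 and 162 against 63.7, 73.2 and 147, from 5 to 122 UMIs a library. The fitted differences of these 5 were between 0.50 and 0.90, with adjusted p between 0.70 and 0.97 (edgeR). Without the third CIH library Gapdh in astrocytes gave 0.02 and Aldoc in microglia 0.21, without the second CIH library Aldoc in astrocytes gave 0.27, and Aldoa in endothelial cells ranged from 0.33 to 1.08 as single normoxia libraries were left out.

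Pfkfb3 and Pdk1 had lower levels in CIH libraries, without a call when all libraries were used. Pfkfb3 had 16.5, 13.6 and 16.1 CPM in granule neurons in CIH and 23.3, 28.5 and 22.2 in normoxia. Every CIH library lay below every normoxia library, the third included (-0.69 ± 0.18, adjusted p = 0.83, edgeR). With the stricter gate for granule neurons, however, the difference was 0.026. In oligodendrocytes Pfkfb3 had 22.7, 20.9 and 22.4 against 26.7, 26.6 and 28.3, without overlap (-0.32 ± 0.12, adjusted p = 0.87, edgeR), and in neurons 26.6, 23.5 and 30.8 against 35.7, 35.1 and 31.3, without overlap. The neurons' value passed the threshold without the third CIH library (-0.45 ± 0.09, adjusted p = 0.028, edgeR), but no neuronal class alone gave a call there. Pdk1 in microglia had 79.8, 81.1 and 79.4 against 123, 116 and 89.6, from 27 to 69 UMIs a library and without overlap (-0.46 ± 0.20, adjusted p = 0.97, edgeR).

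Slc16a7 did not pass the test in any class with all libraries, but lay higher in CIH excitatory neurons. In excitatory neurons it had 93.1, 87.7 and 82.7 CPM in CIH and 69.8, 66.1 and 74.6 in normoxia. The groups did not overlap and the third CIH library was the lowest of its group (0.30 ± 0.10, adjusted p = 0.68, edgeR). In all neurons it had 91.4, 93.5 and 75.7 against 76.0, 72.1 and 73.6, and without the third CIH library it was higher by 0.31 ± 0.06 (adjusted p = 0.022, edgeR). The granule, excitatory and inhibitory classes alone gave no call without that library. In oligodendrocytes the values, 123, 124 and 113 against 125, 121 and 123, overlapped. In precursors, where Slc16a7 was the 1 member tested, it had 161, 104 and 117 against 92.1, 123 and 163, which overlapped (-0.06 ± 0.33, adjusted p = 0.99, edgeR).

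**Figure D4:**
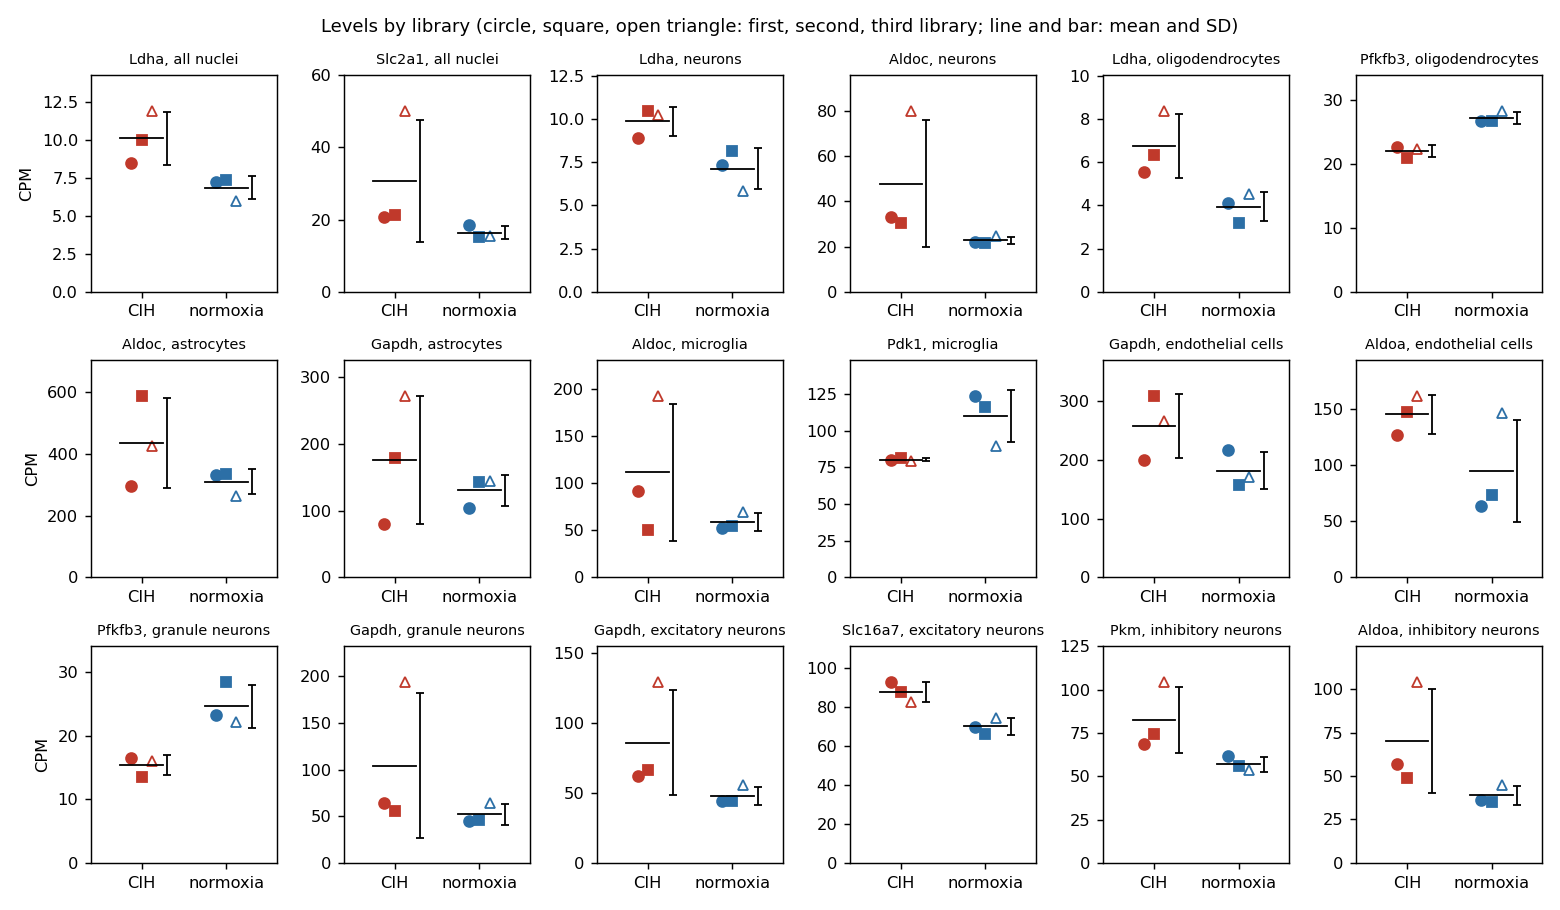
Levels in each library (y axis, CPM of the class) for the members with the smallest p in each sum of nuclei; symbols mark the first, the second and the third library, lines the group mean and bars the SD (n = 3). The third CIH library is the highest of the 6 for Gapdh in granule and excitatory neurons (194 and 130), while Pfkfb3 in granule neurons is below normoxia in each CIH library.

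Non-overlap of the groups was counted over members with at least 60 UMIs. In all nuclei 11 of 35 rows did not overlap (9 higher in CIH), against 19.2% of all genes, and in neurons 11 of 35 (8 higher), against 19.5%. In oligodendrocytes it was 6 of 34 against 11.7%, in excitatory neurons 5 of 32 against 11.7%, in inhibitory neurons 6 of 32 against 12.5% and in granule neurons 3 of 32 against 11.6%. In astrocytes it was 3 of 28 against 10.5%, in microglia 1 of 25 against 11.2%, in endothelial cells 1 of 14 against 13.1% and in precursors 0 of 7 against 10.3%. Beside the genes above, Ldhb, Tpi1 and Pgam1 were among the members that lay higher in neuronal sums. In astrocytes, where the count lay near the share of all genes, Bpgm lay higher and Dlat and Hk1 lower.

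The effect of CIH did not differ detectably between classes for any member. In limma on the difference between 2 classes of a library, 0 members and 0 genes were called (0%) for oligodendrocytes minus excitatory neurons, oligodendrocytes minus astrocytes, and excitatory minus inhibitory neurons, with 1, 1 and 0 members at an unadjusted p under 0.05. In a simulation of oligodendrocytes minus excitatory neurons, 11% of 2-fold and 66% of 4-fold changes were recovered. Only the oligodendrocytes were simulated there, and the excitatory neurons were the measured ones. Deviations that 2 classes of a library share were thus not kept, and recovery with real pairs may differ. Isozyme shares were also compared between groups. In 141 pairs of a share and a class, 12 (8.51%) did not overlap, each with p = 0.1 in an exact permutation test (two-sided), the smallest that 3 libraries against 3 allow. A fraction of 0.1 of the 20 assignments separates the groups, so 12 of 141 is no more than random assignment would give. Shares of a family also depend on each other, so the pairs are not independent. The Pfkfb3 share in granule neurons was 20.3 ± 2.36% in CIH and 28.3 ± 2.29% in normoxia (SD, n = 3), and the Slc16a7 share in excitatory neurons was 90.3 ± 0.63% and 86.8 ± 2.72%. Related genes had 0 calls in every list and sum (edgeR).

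The third CIH library was further described by gene length, since short members stood out in it. In oligodendrocytes its Gapdh level was 231 CPM, against 60.6 and 59.4 in the other CIH libraries and 60.9, 55.1 and 82.8 in normoxia. On the log2 scale (pseudocount 1) the third CIH library exceeded the mean of the first and second by 1.92 for Gapdh, 1.47 for Aldoa, 1.42 for Aldoc, 1.47 for Pgam1, 1.28 for Tpi1, 1.21 for Ldhb and 1.11 for Pgk1. The long genes gave 0.14 for Hk1, -0.13 for Slc16a7 and -0.21 for Dlat. Over 15 members under 20 kb with at least 60 UMIs the median was 1.11, against 0.08 for all genes of that length, and over 17 members of 20 kb or more it was 0.09, against -0.01. In excitatory neurons the short members' median was 0.40 and that of all short genes -0.02.

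Over the members of oligodendrocytes the ratio and log10 gene length had a Pearson r of -0.66 (Spearman's rho -0.64, 32 genes), a description over genes that share the libraries. Over 12227 genes r was -0.15. The third normoxia library showed r of -0.51 over its 32 members, with smaller ratios (0.51 for Gapdh). Summed over the class, mitochondrially encoded RNAs exceeded the other CIH libraries by 1.41 and ribosomal protein genes by 0.91. In endothelial cells, where Gapdh gave 0.07, these sums gave -0.53 and -0.31, and in astrocytes, where Gapdh gave 1.07, they gave 0.21 and -0.11. The part of these RNAs in the members' differences was not tested.

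**Figure D5:**
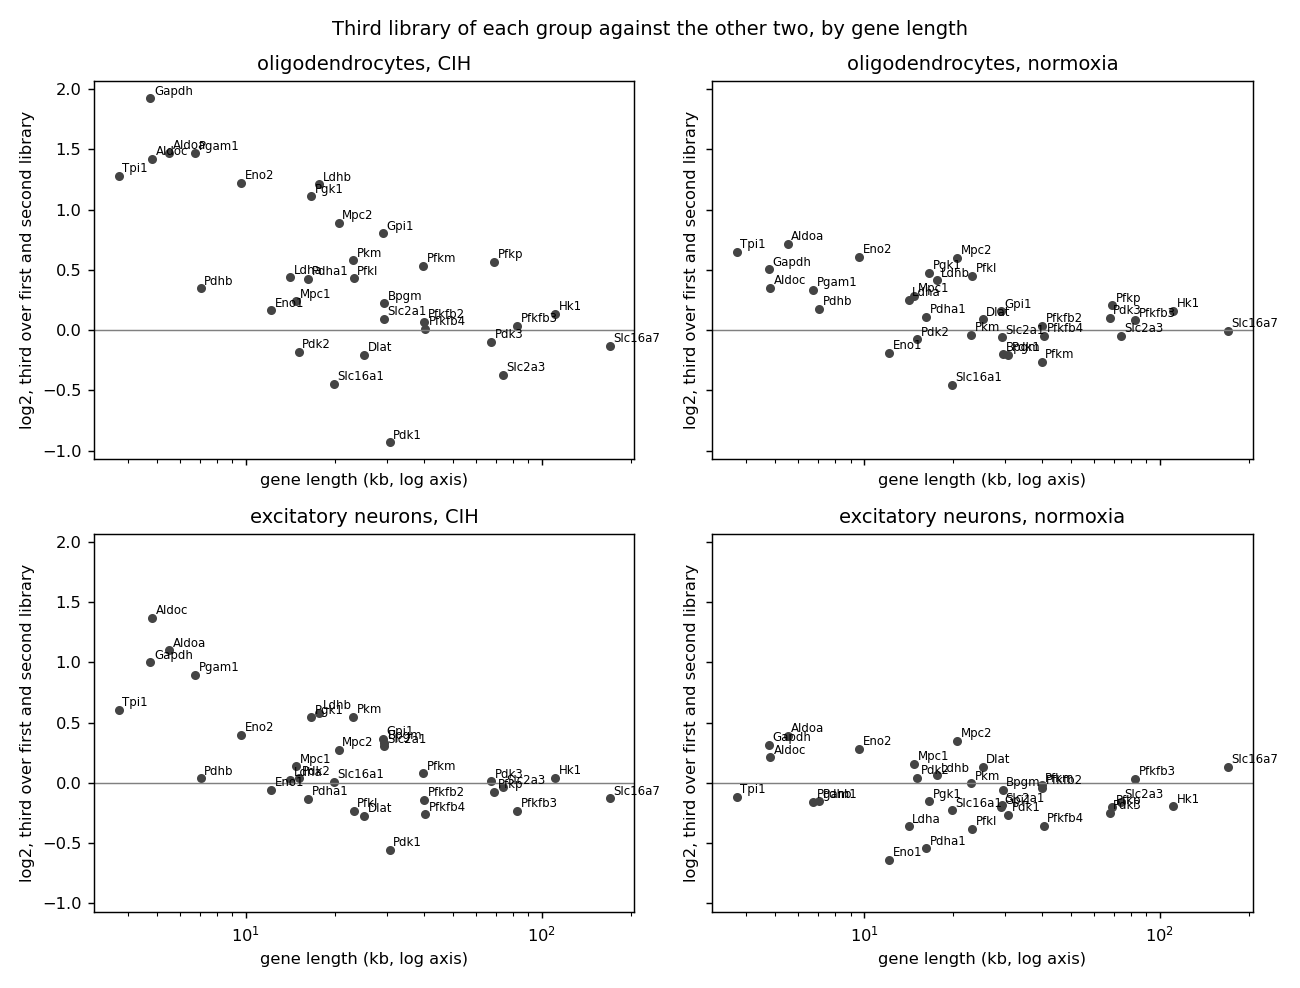
Log2 ratio of the third library to the mean of the first and second of its group (y axis) against gene length in kb (x axis, log scale) for the members with at least 60 UMIs, in oligodendrocytes and excitatory neurons, CIH on the left and normoxia on the right. Short genes such as Gapdh (1.92) sit high and long genes such as Slc16a7 (-0.13) near 0 in the third CIH library of oligodendrocytes.

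Gene models (GENCODE M21, mm10) place the members that carried these patterns as follows. Gapdh lies at chr6:125161715-125166467 (minus strand, 4.75 kb) and overlaps Iffo1 on the other strand. Aldoa lies at chr7:126795234-126800751 (minus strand, 5.52 kb) and overlaps Fam57b on the other strand. Aldoc lies at chr11:78322968-78327781 (plus strand, 4.81 kb). Hk2 lies at chr6:82725025-82774454 (minus strand, 49.4 kb), Slc2a1 at chr4:119108711-119137983 (plus strand, 29.3 kb) and Slc16a7 at chr10:125219270-125389465 (minus strand, 170 kb), and predicted genes overlap these 3 on the other strand. Counts cover whole genes, so no exon or intron is assigned.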

How the data were processed

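The deposited files hold raw UMI counts per gene and barcode, made by the authors with Cell Ranger (6.1.2 per the file headers; Cell Ranger 3.1.0, Seurat 4.0 and mm10 per the submitters' processing notes). Whether intronic reads or strand were used in counting is not given in the sources used here. Nuclei (at least 500 genes, at most 5% mitochondrial UMIs) were assigned to a class with at least 3 distinct markers of its list and a lead of at least 2 over the next list, which left 4981 of 38976 nuclei (12.8%) without a class. Nuclei with mixed markers stayed out of the classes, and removal of high Scrublet scores (scanpy 1.11.5) was an alternative.

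UMIs were summed per library and class with at least 20 nuclei in each library, and tested with edgeR 4.0.16 (R 4.3.3; TMM, filterByExpr, quasi-likelihood F test, Benjamini-Hochberg over all genes, 0.05), as CIH against normoxia within a class and as class with library as a factor. DESeq2 1.42.0, limma 3.58.1 (prior count 1), exact sign-flip and exact permutation tests (scipy 1.17.1) were also used. On simulated data, false calls were 17 of 166 calls in oligodendrocytes (27 of 178 with DESeq2), 21 of 183 in excitatory neurons, 9 of 154 in astrocytes and 8 of 115 in endothelial cells, above the intended 5%. They were 5 of 200 for astrocytes minus oligodendrocytes and 0 of 77 for the difference of effects. For the former, all simulated classes had the same astrocyte profile apart from 200 changed genes, and no library effect. Real classes differ in most genes, so this share may not hold for the calls between classes. For the latter, only the oligodendrocytes were simulated, so its share may not hold for real pairs. The members and lists were chosen with earlier results of these data known, and removal of the shared barcodes was chosen after seeing the data.

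Named were, by rule, the 2 members of smallest p in each sum for CIH, the 2 largest differences in each direction per class or pair, all isozyme families, and at most 3 related genes of smallest p per list. Other members named above were chosen after their values were seen. Library totals limit precision: a tested class held from 78483 UMIs (endothelial cells) to 9792084 (oligodendrocytes) in a library.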

Additional observations from a re-analysis of the deposited data

Results flagged for a closer look

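Barcodes shared between libraries were flagged because they lie outside the comparisons. After filtering, 1163 nuclei of the second normoxia library had barcodes that were also nuclei of the first CIH library (1563 before filtering), while the other 14 pairs of libraries shared at most 31. Under the same barcode the first CIH library held a median of 7.95 times the UMIs of the second normoxia library (5th to 95th percentile 7.22 to 8.76). The correlation of their log UMIs was 0.961, and the median correlation of expression profiles was 0.465 for the same barcode and 0.002 for different barcodes. They held 6.33% of the second normoxia library's UMIs. With them kept, the members called were 0 in all 10 CIH sums. The cause was not tested.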

How the results depend on the processing

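Under the alternatives, 421 values of the counts of members called stayed within 1.5 times the main count and 14 did not. A count of 0 in both settings was scored as staying, and some outcomes were fixed in advance. With 1 library left out, the smallest p of an isozyme share was 0.0625 (sign-flip test), so none could be called. The stricter gate left the sum of all nuclei unchanged. The 421 are therefore no measure of how robust the results are. For CIH against normoxia, the members called with 1 library left out ranged from 0 to 1 in all nuclei and from 0 to 3 in neurons, the highest being without the third CIH library. With no filter on low counts, 3 members were called in granule neurons (0.560% of all genes), 4 in excitatory neurons (0.820%) and 6 in inhibitory neurons (1.15%). Between classes, members higher in precursors ranged from 1 to 2 and in inhibitory minus excitatory neurons from 0 to 2 with 1 library left out, and the latter was 1 with the stricter gate. In granule minus excitatory neurons 6 were higher with no filter, with the stricter gate and in deeper nuclei. In endothelial cells 14 were lower with the stricter gate.

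Pfkfb3 in granule neurons reversed to 0.026 with the stricter gate. Slc16a7 in precursors was 0.034 with no filter and, with 1 library left out, ranged from -0.23 to 0.24, with 0.02, 0.01 and 0.24 above 0. Of the other values of named members, 254 for CIH and 522 between classes kept direction and side of the threshold, 5 for CIH gained a call and 16 between classes lost one, most in inhibitory minus excitatory neurons. The cause was not tested.

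Genes called over the whole table for CIH varied more. DESeq2 called 251 in all nuclei, 332 in neurons, 20 in oligodendrocytes and 17 in inhibitory neurons, but 0 members. Without the third CIH library edgeR called 545, 982, 10 and 14 in these sums and 24 in excitatory neurons. With no filter it called 4 in all nuclei, 18 in neurons, 28 in oligodendrocytes, 22 in astrocytes, 58 in microglia, 15 in endothelial cells, 134 in granule, 203 in excitatory and 289 in inhibitory neurons.

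Same-numbered libraries correlated in their deviations from the group means at 0.066 to 0.189 in all nuclei, 0.047 to 0.183 in excitatory neurons and 0.191 to 0.432 in oligodendrocytes. Since not every same-numbered pair passed 0.1 in all nuclei, the replicate numbers were not taken as pairs, although every such pair did in oligodendrocytes. There, first and second libraries of different numbers also reached 0.134 and 0.181. The third libraries had 0.432 with each other and -0.310 to -0.256 with the first and second libraries of the other group. Deviations from a group mean cancel out within the group, so the negative values follow at least in part from the positive one. With the replicate number as a block, 0 members were called in every sum, and genes called were 226 in neurons, 33 in oligodendrocytes, 9 in inhibitory neurons, 4 in microglia, 3 in excitatory neurons, 2 in precursors, 1 each in all nuclei and endothelial cells, and 0 in astrocytes and granule neurons. The stricter gate was not run for precursors, nor deeper nuclei for precursors and endothelial cells, which had under 20 nuclei in a library. Of the tested classes, precursors (293 nuclei) and endothelial cells (847) were the smallest.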
